A study of Drosophila melanogaster with 9 samples.

Results

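The heat-shock and chaperone genes Hsp23, Hsp26, Hsp27, Hsp67Bc, Hsp68, Hsp70Bb, Hsp70Bc, Hsp83, stv and DnaJ-1 were examined in 9 RNA immunoprecipitation sequencing libraries of the Drosophila ovary. They are 10 of the 17024 features in the count lists and were found by the symbols of their FlyBase identifiers. All 10 passed the filter on low counts over the 9 libraries, which kept 7920 features. They were chosen by their function and with their measured levels per replicate number in view. Differences between replicate numbers are therefore given as descriptions without a test, while comparisons between the 3 fractions are tested over all genes.

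Each library came from ovaries of flies with the genotype larp::GFP::FLAG, taken from females 1 to 3 days post-eclosion. Larp is the La-related protein, an RNA-binding protein, and every group carried the tagged form, so that no untagged ovary served as a control. The input group held RNA of 10% of the lysate, the IgG control group held RNA recovered with mouse IgG, and the anti-FLAG IP group held RNA recovered with antibody to the tag, with 3 libraries each. The labels do not say whether the replicates were separate groups of flies, so p-values measure the spread between these libraries only, and no heat treatment is named for any library.

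Heat-shock proteins are chaperones that hold or refold unfolded proteins, and many of their genes are switched on by the heat shock factor Hsf within minutes of heat or other stress. Small heat-shock proteins bind unfolded clients, Hsp70 proteins refold them in cycles of ATP binding with J-domain and BAG-domain partners, and Hsp90 completes the folding of signalling proteins. In the fly ovary, Hsp83, Hsp26, Hsp27 and Hsp23 are also transcribed during normal egg development, while the Hsp70 genes are nearly silent until stress.

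Library totals ran from 11316201 to 17571309 counts. The 10 genes together held between 0.411% of the counts, in the anti-FLAG IP replicate 2, and 1.10%, in the IgG control replicate 3. Normalised read counts are given as CPM, which scales each library to the same effective total by TMM over all 9 libraries. TMM factors were 1.17 to 1.30 in the input, 1.21 to 1.22 in the IgG control and 0.551 to 0.801 in the anti-FLAG IP, so that levels in the anti-FLAG IP depend on this scaling more than levels in the other fractions. The 4 germline markers examined (of 6 listed) summed to 1740 to 2014 CPM in the input, 1517 to 2165 in the IgG control and 1545 to 1813 in the anti-FLAG IP. The 6 follicle cell markers summed to 3205 to 5379, 4493 to 6063 and 4289 to 7341 CPM. Single genes differed widely within these lists. The oocyte determinant osk had 789 to 1504 CPM and bam 4.94 to 43.4 CPM, while the yolk protein gene Yp1 had 743 to 3510 CPM and tj 42.2 to 141 CPM. The 4 muscle markers examined (of 5 listed) summed to 124 to 285 CPM in the input, 224 to 571 in the IgG control and 111 to 307 in the anti-FLAG IP. The 3 fat body markers examined (of 4 listed) summed to 15.1 to 36.3, 45.7 to 645 and 21.5 to 170 CPM, with Fbp1 at 0 in every library. The hemocyte, gut and neuron lists stayed at or under 14.5 CPM. The part of these other cell types in the results was not tested. These are bulk libraries, in which fewer cells of a type and less RNA per cell cannot be told apart.

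The genes lie on 2 arms of the third chromosome, 7 on 3L and 3 on 3R (dm6 coordinates, BDGP6.54 annotation). All 4 small heat-shock genes sit together on 3L. In order these are Hsp67Bc (FBgn0001229, 9371511 to 9372497, minus strand), Hsp26 (FBgn0001225, 9376418 to 9377427, minus strand), Hsp23 (FBgn0001224, 9381882 to 9382765, plus strand) and Hsp27 (FBgn0001226, 9384063 to 9385694, plus strand). Also on 3L are Hsp83 (FBgn0001233, 3192969 to 3197059, plus strand), DnaJ-1 (FBgn0263106, 5750029 to 5752189, minus strand) and stv (FBgn0086708, 13477541 to 13483515, plus strand). On 3R, Hsp70Bb (FBgn0013278, 12505793 to 12508139) and Hsp70Bc (FBgn0013279, 12509076 to 12511461) are plus-strand neighbours, and Hsp68 (FBgn0001230) lies at 24055080 to 24057310 on the minus strand. All but Hsp83, stv and DnaJ-1 are annotated without an intron. That is 7 of 10 genes, against 8.89% of the 7731 annotated genes that passed the filter. Hsp27, Hsp68 and Hsp83 share 49, 26 and 15 exon bases with genes on the other strand, and whether the counting used strand is not given in the sources used here.

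Hsp83 encodes the cytoplasmic Hsp90. In input it had 3167, 3151 and 4286 CPM in replicates 1 to 3. In IgG control the values were 3354, 3269 and 4149 CPM, and in the anti-FLAG IP they were 4655, 5648 and 5206 CPM. With this scaling all 3 anti-FLAG IP libraries were above all 6 others. Scaled by library totals, the anti-FLAG IP libraries had 3121, 3113 and 4168 CPM, each below same-numbered input and IgG control. Replicate 3 was highest in the input and IgG control and lay between the other replicates in the anti-FLAG IP. The differences between replicate numbers were thus small in Hsp83.

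The small heat-shock genes varied to very different degrees, although they are neighbours. Hsp26, which encodes a cytoplasmic small heat-shock protein, had 1416, 1334 and 2574 CPM in the input replicates 1 to 3. Its IgG control values were 1326, 1229 and 2274 CPM, and its anti-FLAG IP values were 851, 1076 and 1604 CPM. In each fraction replicate 3 was highest, and the 3 replicate 3 libraries were above the other 6. Hsp23, a second cytoplasmic small heat-shock gene, had 69.9, 64.7 and 197 CPM in the input and 69.8, 61.9 and 180.0 CPM in the IgG control. In anti-FLAG IP it had 46.6, 32.5 and 111 CPM. Here too each replicate 3 library was above all libraries of the other numbers, and anti-FLAG IP was the lowest fraction for each number. Hsp27, whose product is found in the nucleus, was level across the lysate libraries, with 707, 698 and 707 CPM in the input. It had 740.0, 899.7 and 1212 CPM in the IgG control and 468, 479 and 938 CPM in the anti-FLAG IP, so that replicate 3 was set apart in the precipitated fractions and not in the input. Hsp67Bc, a small heat-shock gene whose product acts in autophagy, had 60, 0 and 596 counts in the input. It had 261, 0 and 285 counts in the IgG control and 27, 0 and 332 counts in the anti-FLAG IP. Replicate 2 was thus empty in all 3 fractions while replicates 1 and 3 were not, and a count of 0 allows up to 0.231, 0.171 and 0.263 CPM by library total in the 3 fractions, at a floor of 3 counts per library that covers counting error only. In CPM, with the floor scaled by TMM in place of library totals, replicate 3 was at least 219.7-fold above the floor of replicate 2 in the input. It was at least 146-fold above it in the IgG control and 62.7-fold in the anti-FLAG IP. Hsp67Bc was the only gene of the 7920 (0.0126%) with 0 counts in every replicate 2 library and at least 20 in each of the other 6. This condition restates the counts of Hsp67Bc, so it describes the gene and is no test. Cyp6a17, Paris, Sb and lncRNA:CR32835 also had 0 counts in every replicate 2 library, with fewer than 20 in some of the others.

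The stress-inducible Hsp70 class differed widely between replicate numbers, as Hsp67Bc did. Hsp68, an inducible member of the Hsp70 family, had 31.3, 2.84 and 374 CPM in the input replicates 1 to 3. It had 43.2, 1.46 and 362 CPM in the IgG control and 38.2, 4.46 and 292 CPM in the anti-FLAG IP. The order was replicate 3, then 1, then 2 in every fraction, and replicate 3 exceeded replicate 2 by 131-fold, 248-fold and 65.6-fold in the input, IgG control and anti-FLAG IP. Hsp70Bb, which encodes a major heat-inducible Hsp70, had 75, 16 and 653 counts in the input. It had 203, 0 and 398 counts in the IgG control and 36, 0 and 342 in the anti-FLAG IP, the same order of replicates. Hsp70Bc, its neighbouring copy, had 14, 0 and 249 counts in the input, 0, 0 and 546 in the IgG control and 6, 0 and 357 in the anti-FLAG IP. Its reads thus came almost entirely from replicate 3. The Hsp70 copies are nearly identical in sequence, so the assignment of reads among them is uncertain. Summed over the 6 annotated copies, the counts were 168, 30 and 1670 in the input, 443, 1 and 1465 in the IgG control and 109, 1 and 1125 in the anti-FLAG IP. The sum keeps the order of replicates seen in Hsp70Bb, from 0.0471 CPM in the IgG control replicate 2 to 114 CPM in the input replicate 3.

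The remaining genes encode partners of Hsp70. DnaJ-1, a J-domain protein that delivers clients to Hsp70, had 253, 205 and 523 CPM in the input and 461, 272 and 679 CPM in the IgG control. In anti-FLAG IP it had 248, 198 and 756 CPM, and in all fractions replicate 3 was highest and replicate 2 lowest. The BAG-domain gene stv (starvin), whose product helps Hsp70 release its clients, had 8.28, 8.10 and 39.8 CPM in the input and 7.41, 7.87 and 45.1 CPM in the IgG control. Its anti-FLAG IP libraries had 16.0, 15.4 and 225 CPM, from 137, 97 and 2496 counts. Replicates 1 and 2 were within 0.08 of each other on the log2 scale in each fraction, unlike in Hsp68, and replicate 3 was far above both.

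**Figure D1:**
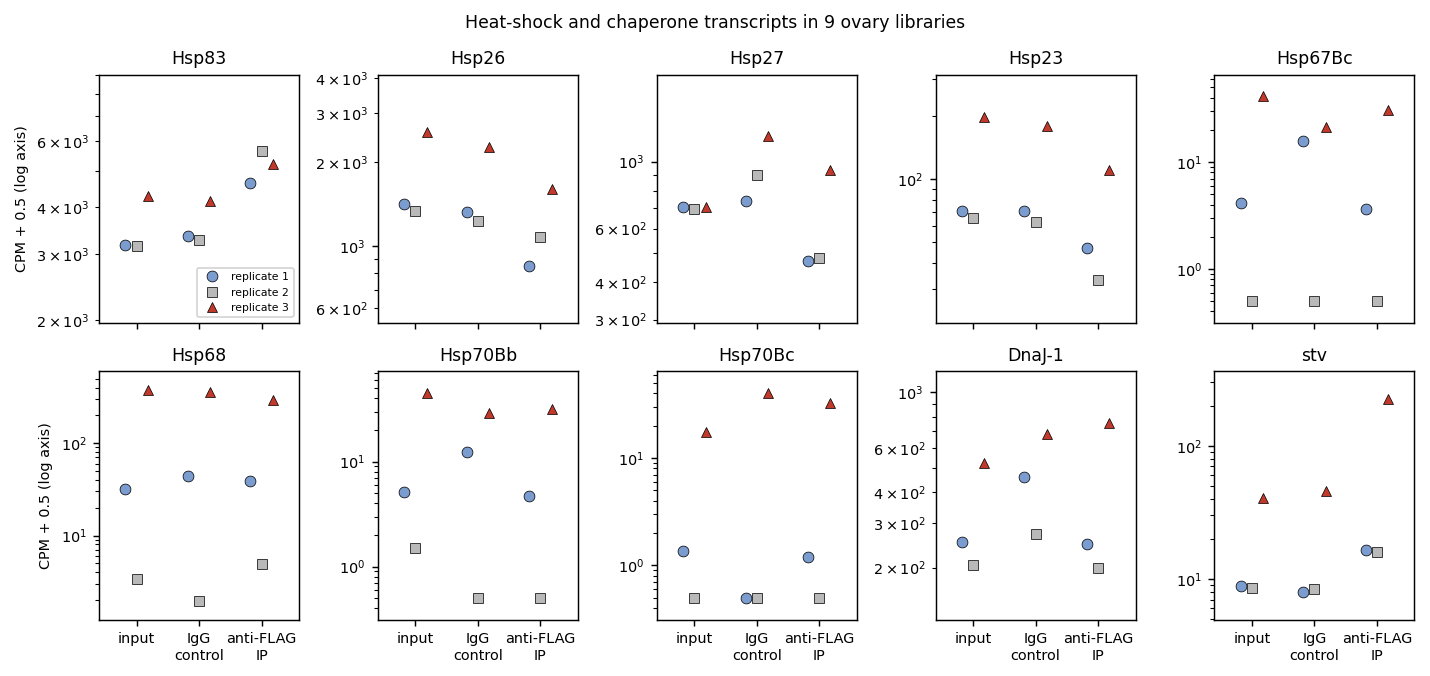
Normalised read counts (CPM + 0.5, log axis) of the 10 genes in the input, IgG control and anti-FLAG IP, with 1 point per library and the replicate number as colour and shape. Replicate 3 (triangles) is highest in every fraction for Hsp68, from 292 to 374 CPM, and for stv, whose anti-FLAG IP point at 225 CPM stands alone. For Hsp83 the anti-FLAG IP points lie above those of the input and IgG control, which overlap.

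To describe this pattern on 1 scale, replicate 3 was compared with the mean of replicates 1 and 2 as log2(CPM + 0.5). The median difference over the 10 genes was 1.88 in the input, 1.97 in the IgG control and 2.78 in the anti-FLAG IP. Over all 7920 genes it was -0.01, 0.05 and 0.07. The largest difference was that of Hsp68 in the input, at 5.18, and that of Hsp70Bc in the IgG control and anti-FLAG IP, at 6.32 and 5.40. Hsp70Bc was at 4.41 in the input, and Hsp68 at 5.29 and 4.40 in the precipitated fractions. Hsp67Bc had 4.83, 2.91 and 4.49, and Hsp70Bb had 4.03, 3.56 and 4.35. Because a pseudocount was added, these values understate the change of genes near 0. The smallest was that of Hsp27 in the input, at 0.01, and that of Hsp83 in the IgG control and anti-FLAG IP, at 0.33 and 0.02. Hsp83 was at 0.44 in the input, Hsp27 at 0.57 and 0.99 in the precipitated fractions, and Hsp26 at 0.90, 0.83 and 0.75. Hsp23 was even across fractions, at 1.55, 1.45 and 1.50. For stv the difference was larger in the anti-FLAG IP, at 3.80, than in the input, at 2.21, or IgG control, at 2.49. Of the 10 genes, 8 had all replicate 3 libraries above the other 6 libraries, the exceptions being Hsp27 and Hsp83. Over all genes 4.47% met this condition. A difference of at least 2-fold in all 3 fractions was found for 6 of the 10 genes, namely Hsp23, Hsp67Bc, Hsp68, Hsp70Bb, Hsp70Bc and stv, and for 2.01% of all genes. As the genes were picked with these values known, the counts describe the choice. Without replicate 2 the median was 1.84 in the input, 1.01 in the IgG control and 2.17 in the anti-FLAG IP, so the IgG control value rested in part on that number.

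**Figure D2:**
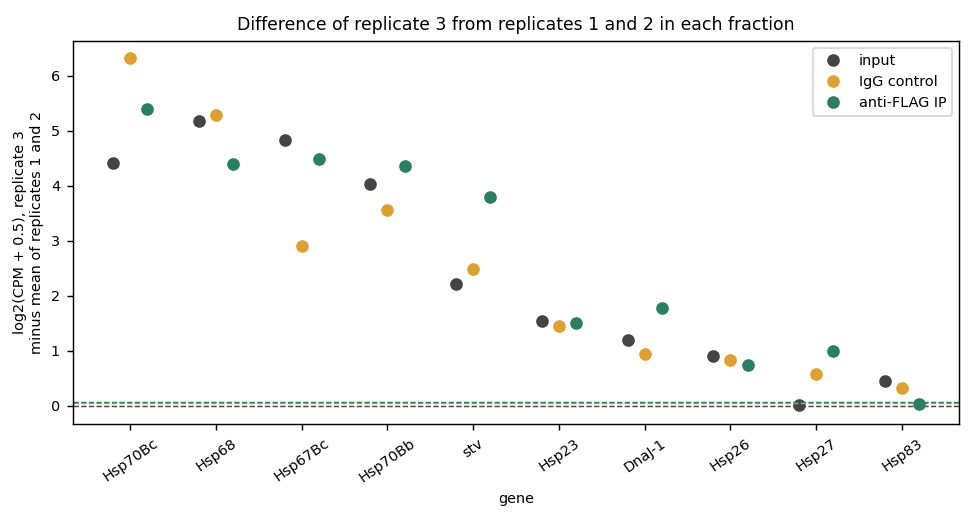
Difference of replicate 3 from the mean of replicates 1 and 2, in log2(CPM + 0.5), for each gene (horizontal axis, ordered by size) in the input, IgG control and anti-FLAG IP. Dashed lines are the medians of all 7920 genes, from -0.01 to 0.07, and the points of Hsp70Bc, Hsp68, Hsp67Bc and Hsp70Bb reach from 2.91 to 6.32.

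Replicates 1 and 2 differed for part of the genes as well. The log2 difference of replicate 1 from replicate 2 was 3.25, 4.48 and 2.96 for Hsp68 in the input, IgG control and anti-FLAG IP. For Hsp26 it was 0.09, 0.11 and -0.34, and for stv 0.03, -0.08 and 0.05. The order replicate 3, then 1, then 2 held in every fraction for Hsp23, Hsp67Bc, Hsp68, Hsp70Bb and DnaJ-1, and for Hsp70Bc in all but the IgG control, where replicates 1 and 2 were both at 0. Across the 9 libraries, the 45 pairs of genes had a median Pearson's r of 0.706 on the log2 scale, with the highest value of 0.980 between Hsp67Bc and Hsp70Bb and the lowest of -0.29 between Hsp27 and Hsp83. Pairs with Hsp83 had a median of 0.209. The libraries share replicate numbers and depth, and these values are a description only.

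Levels were compared between genes per kilobase of exon. In input, Hsp26 was highest with 1757 ± 687 CPM per kilobase (SD, n = 3 here and for the other levels), followed by Hsp83 with 1194 ± 219.8. Their ranges overlapped. Hsp27 came next with 431 ± 3.15 CPM per kilobase and was separated from the genes on either side of it. Below it, DnaJ-1 at 151 ± 79.2, Hsp23 at 125 ± 85.0 and Hsp68 at 61.0 ± 92.5 CPM per kilobase had overlapping ranges. The lowest were Hsp67Bc at 15.0 ± 22.8, Hsp70Bb at 7.13 ± 10.3, stv at 5.10 ± 4.97 and Hsp70Bc at 2.50 ± 4.02 CPM per kilobase, which overlapped with each other. Among the 7731 annotated genes these input levels reached from the 17.1 percentile, for Hsp70Bc, to the 99.75 percentile, for Hsp26. In anti-FLAG IP, Hsp83 was first with 1746 ± 168 CPM per kilobase and Hsp26 followed with 1165 ± 383, again with overlapping ranges. There stv took the place above Hsp67Bc and the Hsp70 copies, with 23.3 ± 33.0 CPM per kilobase, a level carried by replicate 3. Hsp83 held 53.4% of all counts in the 10 genes in the input, 52.7% in the IgG control and 65.4% in the anti-FLAG IP.

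To ask whether transcripts of these genes were enriched with Larp over their abundance in the lysate, anti-FLAG IP was compared with input. None of the 10 genes passed the threshold, a fold change of at least 2 with an adjusted p under 0.05 by edgeR, against 2.09% of the 7575 genes tested. DESeq2 called 0 of the 8 genes for which it gave an adjusted p, and gave none for stv and Hsp70Bc. In edgeR 0 of the 10 had an unadjusted p under 0.05, against 14.4% of all genes. Their median log2 fold change was -0.21, against 0.01 for all genes, and 4 of the 10 were above 0. The SEs ran from 0.25 for Hsp27 to 2.63 for Hsp70Bc, against a median of 0.29 over all genes. This fit counts the spread between replicate numbers as error, and that spread was in view when the genes were chosen. Genes with wide SEs, such as stv and the Hsp70 class, could thus hardly be called. The counts of 0 do not show that their enrichment was absent. Same-numbered libraries deviated together, so a second fit took the replicate number as a block, in which the SEs ran from 0.18 for DnaJ-1 to 0.76 for Hsp70Bc. There 2 of the 10 genes (Hsp23 and stv) had an unadjusted p under 0.05, against 18.3% of all genes. With the block 3.18% of all genes were called, and 1 of the 10 genes, stv, rose.

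The change of stv was the largest among the 10 genes in this comparison. Its anti-FLAG IP level was 1.93, 1.91 and 5.66 times that of same-numbered input in replicates 1 to 3. All 3 ratios were above 1, and replicate 3 was far above the other ratios. The log2 fold change was 2.20 ± 1.52 (SE, adjusted p = 0.633 by edgeR) without the block and 1.52 ± 0.30 (adjusted p = 0.00285 by edgeR) with it. Replicate 3 decided this call. Without that number, the log2 fold change with the block was 0.97 (adjusted p = 0.338 by edgeR), while without replicate 1 or 2 it was 1.78 in both cases. The call also depended on the scaling, since with the block and total-count scaling the value was 0.58 (adjusted p = 0.185 by edgeR), where the ratios of stv to same-numbered input were 0.994, 0.845 and 3.86.

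Hsp83 was 1.47, 1.79 and 1.21 times its level in same-numbered input. The log2 fold change was 0.56 ± 0.31 (SE, adjusted p = 0.440 by edgeR) without the block and 0.58 ± 0.39 (adjusted p = 0.484 by edgeR) with it, so it did not pass, and under total-count scaling its sign turned to -0.33. Hsp23 and Hsp26 were below input in 3 of 3 pairs, although neither was called. For Hsp23 the ratios were 0.667, 0.502 and 0.561, and the log2 fold change was -0.79 ± 0.63 (adjusted p = 0.670 by edgeR) without the block and -0.79 ± 0.20 (adjusted p = 0.0217 by edgeR) with it, short of 2-fold. Leaving out single libraries or numbers moved the value without the block to between -1.48 and -0.069. Hsp26 had ratios of 0.601, 0.807 and 0.623, and a log2 fold change of -0.58 ± 0.32 (adjusted p = 0.456 by edgeR), which moved to between -0.88 and -0.21. Hsp27 was at 0.662 and 0.687 of input in replicates 1 and 2 and at 1.33 in replicate 3. DnaJ-1 was at 0.981 and 0.965 in replicates 1 and 2 and at 1.45 in replicate 3. For both genes the direction in replicate 3 was thus the opposite of that in the other pairs. The 4 genes that were nearly absent from replicate 2 had log2 fold changes between -0.50, for Hsp70Bb, and 0.89, for Hsp70Bc, with SEs of 2.07 to 2.63, and the block narrowed those SEs to 0.22 to 0.76 without a call. TMM scaling sets the median of all genes near 0. When libraries were scaled by their totals alone, that median was -0.88 and Hsp26 was called lower at -1.41 (adjusted p = 0.00547 by edgeR), 1 of 10 genes where 29.2% of all genes were called lower. With total-count scaling and the block, 4 of the 10 genes (Hsp23, Hsp26, Hsp27 and Hsp70Bb) and 34% of all genes were called lower.

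**Figure D3:**
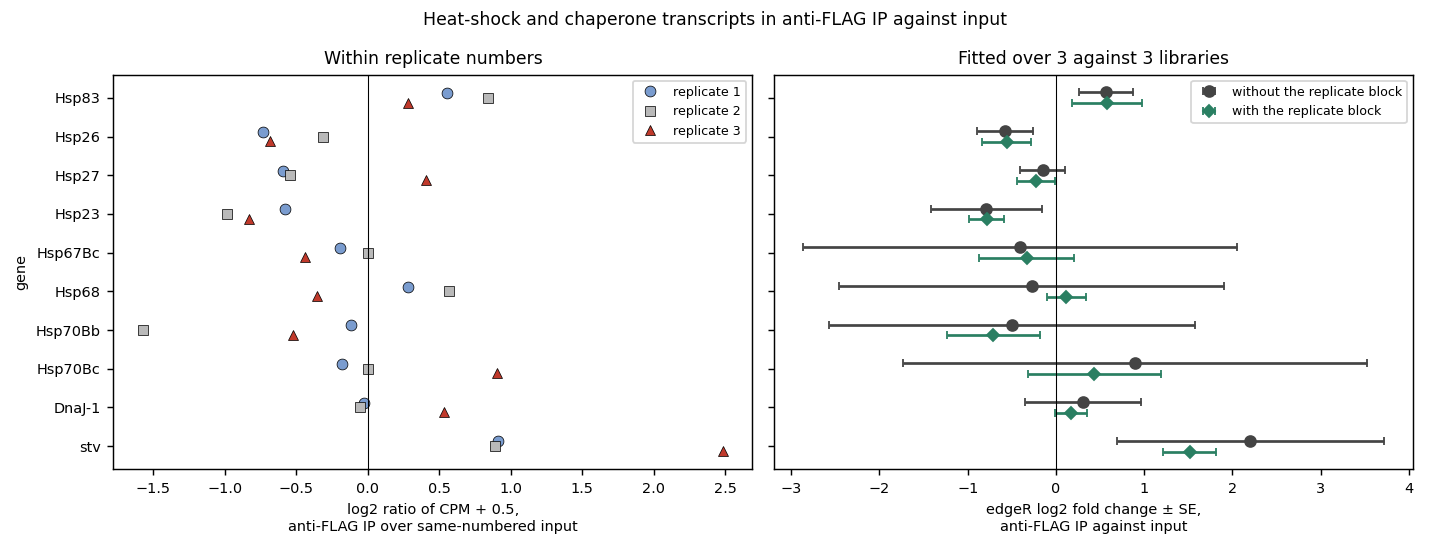
The left panel shows the log2 ratio of CPM + 0.5 in the anti-FLAG IP over same-numbered input for each gene, and the right panel the edgeR log2 fold change ± SE without and with the replicate block. In the left panel stv is above 0 in every pair, with replicate 3 at 2.49, and Hsp23 and Hsp26 are below 0 in every pair. In the right panel the block narrows the SE of Hsp68 from 2.18 to 0.22.

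Anti-FLAG IP was next compared with IgG control, which measures RNA recovered without the antibody to the tag. The anti-FLAG IP libraries are the same as above, so the 2 comparisons are not independent. Hsp70Bc did not pass the filter of this pair. None of the other 9 genes was called by edgeR, while 1.63% of the 7408 genes tested were. DESeq2 called 0 of 6 and gave no adjusted p for stv, Hsp67Bc and Hsp70Bb, as for 58.3% of all genes. In edgeR 0 of 9 had an unadjusted p under 0.05, against 7.57% of all genes, and with the block 3 did (Hsp23, Hsp27 and stv), against 9.89%. The fit without the block had the same limit here as against input, and the comparison of IgG control with input shares it. The median log2 fold change was -0.23, against 0.00 for all genes, and 2 of 9 genes, Hsp83 and stv, were above 0. With the block 1.78% of all genes were called and again only stv among the 9. It was 2.16, 1.96 and 4.99 times its level in same-numbered IgG control, and the log2 fold change was 2.09 ± 1.52 (SE, adjusted p = 0.899 by edgeR) without the block and 1.49 ± 0.34 (adjusted p = 0.0359 by edgeR) with it. As against input, the call was lost without replicate 3, at 1.05 (adjusted p = 0.838 by edgeR), and with the block and total-count scaling, at 0.62 (adjusted p = 0.208 by edgeR).

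Hsp83 was 1.39, 1.73 and 1.25 times same-numbered IgG control, with a log2 fold change of 0.53 ± 0.29 (SE, adjusted p = 0.780 by edgeR). With TMM scaling, Hsp83 and stv were above both controls in 3 of 3 replicate numbers, a condition met by 8.35% of all genes. Hsp23 and Hsp26 were below both in 3 of 3, a condition met by 7.23%. Scaled by library totals, Hsp83 was below both controls in 3 of 3, and stv was above both only in replicate 3. Hsp23 was at 0.668, 0.525 and 0.616 of IgG control, with a log2 fold change of -0.71 ± 0.51 (adjusted p = 0.884 by edgeR), and Hsp26 was at 0.642, 0.876 and 0.705, with -0.45 ± 0.31 (adjusted p = 0.877 by edgeR). With libraries or numbers left out these ran from -1.38 to -0.054 and from -0.73 to -0.12. Hsp27 was at 0.632, 0.533 and 0.774, below IgG control in all pairs, with a log2 fold change of -0.60 ± 0.29 (adjusted p = 0.691 by edgeR). These small heat-shock transcripts thus had lower scaled levels in the anti-FLAG IP than in the control precipitation in each pair. With TMM scaling and all 6 libraries none of their fitted changes reached 2-fold or an adjusted p under 0.05. Without anti-FLAG IP replicate 3, Hsp23 was at -1.38 (adjusted p = 0.170 by edgeR) and Hsp27 at -0.996 (adjusted p = 0.0148 by edgeR). Neither met both conditions. With the block the changes were -0.73 ± 0.24 for Hsp23 (adjusted p = 0.239 by edgeR) and -0.44 ± 0.23 for Hsp26 (adjusted p = 0.576 by edgeR). For Hsp27 the change with the block was -0.64 ± 0.19 (adjusted p = 0.171 by edgeR). Total-count scaling moved the median of all genes to -0.84, at which Hsp26 (-1.26, adjusted p = 0.0187 by edgeR) and Hsp27 (-1.38, adjusted p = 0.0173 by edgeR) were called lower and Hsp83 turned to -0.33. Under that scaling 18.7% of all genes were called lower. With the block as well, 4 of the 9 genes (Hsp23, Hsp26, Hsp27 and DnaJ-1) and 23.7% of all genes were called lower.

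IgG control was compared with input to measure the background of the precipitation. None of the 10 genes was called by edgeR, nor by DESeq2 in the 9 for which it gave an adjusted p (all but Hsp70Bc), and 0% of the 7594 genes tested were called by edgeR, of which 465 (6.12%) had an unadjusted p under 0.05. With the block 0.105% of all genes and none of the 10 were called. The median log2 fold change of the 10 genes was 0.01, and that of all genes 0.00. With the block 2 of the 10 genes (Hsp27 and DnaJ-1) had an unadjusted p under 0.05, against 8.89% of all genes. Without the block Hsp27 alone did, at 1.05, 1.29 and 1.71 times same-numbered input and a log2 fold change of 0.44 ± 0.18 (SE, adjusted p = 0.791 by edgeR). DnaJ-1 was likewise above input in 3 of 3 pairs, at 1.82, 1.33 and 1.30 times, with a log2 fold change of 0.53 ± 0.42 (adjusted p = 0.925 by edgeR) without the block and 0.56 ± 0.13 (adjusted p = 0.0795 by edgeR) with it. Hsp83 hardly moved, at 1.06, 1.04 and 0.968 times input. The ratios of stv were 0.895, 0.971 and 1.13, so its level on IgG control followed input in each replicate number.

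Other chaperone and stress genes were read out from 11 lists, of which 97 genes were in the count lists and 76 passed the filter. No gene of these lists was called in any of the 3 comparisons by edgeR without the block. Against input, 72 of them were tested, 17 (23.6%, against 14.4% of all genes) had an unadjusted p under 0.05 and DESeq2 called 1, CCT5. Against IgG control 71 were tested and 9 (12.7%, against 7.57%) had an unadjusted p under 0.05, and for IgG control against input 5 of 71 did (7.04%, against 6.12%). DESeq2 called 0 in both, of 51 and 70 genes with an adjusted p. With the block only CCT5 was called, a subunit of the TRiC chaperonin that folds actin and tubulin. It had 378, 325 and 482 CPM in the input and 189, 133 and 265 CPM in the anti-FLAG IP, and fell by 1.03 on the log2 scale (adjusted p = 0.000651 by edgeR). Without the block its log2 fold change of -0.997 (adjusted p = 0.0463 by edgeR) lay just short of 2-fold. In IgG control it had 203, 237 and 256 CPM, also below same-numbered input.

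By replicate number, the list nearest to the 10 genes was that of other inducible heat-shock genes, with 8 of 11 passing the filter. Its median difference of replicate 3 was 1.21 in the input, 1.89 in the IgG control and 1.83 in the anti-FLAG IP, and 4 of 8 were at least 2-fold higher in all 3 fractions. Of these, 3 were Hsp70Aa, Hsp70Ab and Hsp70Ba, whose reads cannot be assigned with certainty apart from those of Hsp70Bb and Hsp70Bc. Outside these copies it was 1 of 5 genes, with medians of 0.45, 1.53 and 0.69. This was the nuclear heat-shock RNA lncRNA:Hsromega, at 55.5, 36.4 and 99.3 CPM in the input, 79.9, 28.9 and 139.5 in the IgG control and 30.5, 21.3 and 96.2 in the anti-FLAG IP. Hsf, which encodes the transcription factor of these genes, was level in the input and IgG control, with 191, 183 and 196 CPM and 161.6, 149.9 and 152.5 CPM. In anti-FLAG IP it had 140.3, 72.6 and 163 CPM, a replicate 3 difference of 0.69. Hsp22 and CG4456 had 0 counts in all 9 libraries, and whether this reflects their RNA or the counting of reads was not tested. The constitutive Hsc70-4, the most abundant Hsp70-class gene, had 4101, 4266 and 5308 CPM in the input, 4155, 4783 and 4806 in the IgG control and 5253, 6252 and 4782 in the anti-FLAG IP. Replicate 3 was thus not set apart for this gene.

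The other chaperone lists, of which the ER list includes regulators of the unfolded protein response, had smaller median differences than the full list of other inducible genes. Without its Hsp70 copies that list had medians of 0.45, 1.53 and 0.69. Only the IgG control value then stood apart from those of the other chaperone lists. The medians were 0.31, 0.21 and -0.06 for 2 Hsc70 and Hsp110 genes, 0.07, 0.24 and 0.37 for 17 co-chaperones, and 0.10, 0.12 and 0.05 for 7 TRiC subunits, in the input, IgG control and anti-FLAG IP. For 6 prefoldin subunits they were 0.23, 0.30 and 0.69, for 5 mitochondrial chaperones 0.46, 0.49 and 0.46, and for 11 genes of ER chaperones and the unfolded protein response 0.26, 0.35 and 0.67. None of these genes was at least 2-fold higher in replicate 3 in all 3 fractions. Smaller differences did order the libraries, since all replicate 3 libraries were above the other 6 for 4 of the 11 ER genes (Hsc70-3, Calr, Xbp1 and crc), 2 of the 5 mitochondrial chaperones (Hsp60A and Hsc70-5) and 2 of the 17 co-chaperones (Fkbp59 and HIP), where 4.47% of all genes met this condition. In the list of oxidative and xenobiotic stress, with medians of 0.45, 0.24 and 0.38 over 10 genes, 1 gene was. This was GstD1, a glutathione S-transferase gene, at 18.6, 19.5 and 676 CPM in the input, 31.4, 27.7 and 614 in the IgG control and 16.1, 22.1 and 513 in the anti-FLAG IP. GstD2 of the same list had differences of 2.81, 3.21 and 0.90, at no more than 8.48 CPM. Of the JNK and immediate early genes and the metallothioneins, none reached 2-fold in all fractions, with 5 and 2 genes passing the filter. Their medians were 0.18, 1.23 and 0.54 for the first list and 1.00, 0.70 and 1.33 for the second. The metallothionein gene MtnA had differences of 2.19, 0.99 and 2.43, just short of 2-fold in the IgG control, at no more than 46.1 CPM. Antimicrobial peptide genes summed to at most 9.89 CPM in any library. Along with these differences, the fat body markers were lowest in replicate 3 of every fraction, at 15.1, 45.7 and 21.5 CPM. The muscle markers were highest in replicate 3 of the input and anti-FLAG IP, at 285 and 307 CPM. The follicle cell markers had median differences of 0.72, 0.54 and 0.37, with their sum highest in replicate 3 only in the input. For the germline markers the medians were 0.10, 0.25 and 0.29. The part of these cell types in the differences was not tested.

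**Figure D4:**
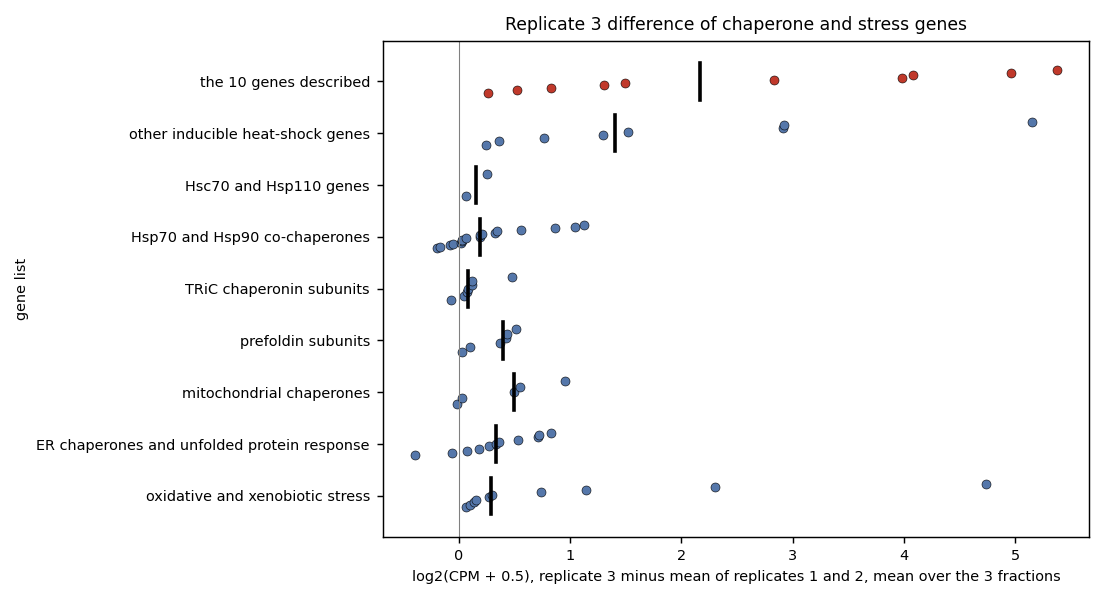
Difference of replicate 3 from the mean of replicates 1 and 2 in log2(CPM + 0.5), averaged over the 3 fractions, with 1 point per gene that passed the filter and a bar at the median of each list. The 10 genes described spread widely to the right, 3 Hsp70 copies lead the other inducible genes, and the other chaperone lists lie further left. GstD1, at 4.73, and GstD2, at 2.31, are rightmost in the oxidative stress list.

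The genes whose levels over the 9 libraries were most like the mean profile of the 10 were then sought among 3631 genes with an SD of at least 0.5 on the log2 scale. Likeness was Pearson's r, and the 10 most alike lay between 0.931 and 0.957, of which 2 had no symbol. Mrp5, which encodes a transporter of the ABC family, reached an r of 0.954, with 17.6, 5.13 and 34.3 CPM in the input, 10.0, 7.25 and 40.8 in the IgG control and 15.1, 4.14 and 50.2 in the anti-FLAG IP. The others with a symbol were mt:ND3, a subunit of mitochondrial complex I (r of 0.942), Cyp6a17, a cytochrome P450 gene (0.937), Paris (0.936), Sb, a transmembrane serine protease gene (0.934), lncRNA:CR32835 (0.933), CG8891 (0.932) and CG31886 (0.931). In 4 of these (Cyp6a17, Paris, Sb and lncRNA:CR32835) replicate 2 held 0 counts in all 3 fractions. Cyp6a17 had 8, 0 and 143 counts in the input, 0, 0 and 140 in the IgG control and 0, 0 and 139 in the anti-FLAG IP. No gene of the chaperone lists was among the 10. These genes were ranked for this likeness, so their values describe the ranking and are not tested.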

How the data were processed

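RNA of 9 Larp immunoprecipitation libraries was extracted with TRIzol, selected for poly(A) tails and fragmented for 13 min. The authors deposited whole-number read counts per FlyBase gene, without normalization. The submitters' processing notes name HISAT2 2.1.0, featureCounts 1.4.6 and dm6. Symbols matched 16647 of 17024 features, and positions and exon lengths came from BDGP6.54 (Ensembl release 115). A feature with a 6-digit identifier and no symbol held up to 7.89% of the counts of a library and was kept in totals.

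Groups and replicate numbers came from the labels. Each pair of fractions was fitted alone, over 6 libraries, with edgeR 4.0.16 in R 4.3.3 (TMM, filterByExpr, robust quasi-likelihood F test, Benjamini-Hochberg adjustment over all genes tested). SEs were derived from the F statistic. The numbers were taken to pair the libraries, since deviations from group means correlated between same-numbered libraries at 0.157 to 0.447 in all 9 pairs over 6845 genes. Between different numbers the values ran from -0.354 to 0.123, and between replicates 1 and 2 from 0.011 to 0.123. Replicate 3 had the highest same-numbered values, at 0.424 to 0.447, so the pairing of replicates 1 and 2 is less clear. A fit with the replicate number as a block is given where it changes a call. No libraries of a group agreed within sampling noise (chi-square per degree of freedom of at least 31.9). Alternatives were DESeq2 1.42.0, total-count scaling, no filter, 1 fit of all 9 libraries, another pseudocount and leaving out libraries or numbers. The fits were also run on simulated data that held no replicate effect shared between fractions. That run therefore does not bear on the choice of the block.

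The genes described and the gene lists were chosen with earlier results of these data known. The genes named are those 10, at most 4 per list by mean CPM unless a count rests on them, and the 10 most alike in profile. CCT5, lncRNA:Hsromega, Hsp22, CG4456, GstD1, GstD2, Hsp70Aa, Hsp70Ab, Hsp70Ba and the genes of the other chaperone lists with all replicate 3 libraries highest were named after their values were seen. Some marker and list genes are not analysed here.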

Additional observations from a re-analysis of the deposited data

How the results depend on the processing

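None of the heat-shock genes was called in any comparison without a filter on low counts, in 1 fit of all 9 libraries or without the 6-digit feature, nor, without the block, with any library or replicate number left out. DESeq2 called none either, but gave no adjusted p for stv in both anti-FLAG IP comparisons, for Hsp70Bc against input and in IgG control against input, or for Hsp67Bc and Hsp70Bb against IgG control. The replicate block called 1 gene against input and 1 against IgG control, stv in both. With the block and 1 number left out the count ran from 0 to 1 in both comparisons, with 0 only without replicate 3. The block changed no other call of the 10 genes. Total-count scaling called 1 gene against input and 2 against IgG control, and 4 in each with the block, all lower. No setting called any of the 10 genes in IgG control against input. The 6-digit feature, leaving out numbers with the block or in the differences of replicate 3, and the block with total-count scaling were chosen after seeing the data.

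Over all genes, edgeR called 139 higher and 19 lower against input, where the number lower became 75 with the block, 52 with DESeq2, 56 with no filter, 2210 (beside 103 higher) with total-count scaling and 2575 with both. Without replicate 3 it was 232 higher and 76 lower, and without replicate 2 it was 0 of each. Without replicate 1 it was 11 and 0. Without the anti-FLAG IP library of replicate 3 alone it was 213 and 145, and without input replicate 1, 2 or 3 or anti-FLAG IP replicate 2 the number lower was 7, 10, 11 or 8. Against IgG control, 120 higher and 1 lower became 1384 lower (beside 98 higher) with total-count scaling, and the number lower was 5 with the block, 2 with DESeq2, 15 with no filter and 1755 with both. Leaving out libraries or numbers without the block moved it to between 0 and 20, the most without anti-FLAG IP replicate 3. The cause was not tested here or for the changes below.

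Of 471 alternative values of the 29 fitted log2 fold changes, 76 changed sign and 17 gained a call, and 7 of the 29 never changed sign. With the block, Hsp68 turned to 0.12 against input and 0.17 against IgG control, and in IgG control against input Hsp67Bc turned to 0.51 and Hsp70Bc to -1.05. Under total-count scaling Hsp83 turned to -0.33 against input and against IgG control, and DnaJ-1 to -0.44 against input. In IgG control against input Hsp83 turned to -0.0030 and Hsp68 to 0.035, and Hsp68 was 0.016 with DESeq2 and 0.012 without the 6-digit feature. Total-count scaling with the block gave -0.29 for Hsp70Bc, -0.34 for Hsp83 and -0.75 for DnaJ-1 against input, and -0.33 for Hsp83 against IgG control. In IgG control against input that setting gave 0.48 for Hsp67Bc, -1.08 for Hsp70Bc, -0.0037 for Hsp83 and -0.038 for stv.

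With libraries or numbers left out, the log2 fold change against input ran from -0.57 to 0.021 for Hsp27, -3.17 to 2.60 for Hsp67Bc, -2.65 to 2.72 for Hsp68 and -2.94 to 2.08 for Hsp70Bb. It ran from -3.98 to 4.66 for Hsp70Bc, -0.25 to 3.40 for stv and -0.55 to 0.82 for DnaJ-1. Against IgG control the range was -2.90 to 0.55 for Hsp67Bc, -2.65 to 2.33 for Hsp68, -2.67 to 0.98 for Hsp70Bb, -0.35 to 3.48 for stv and -1.07 to 0.13 for DnaJ-1. The lowest stv value in both came without anti-FLAG IP replicate 3. In IgG control against input the range was -0.75 to 0.63 for Hsp23, -0.47 to 0.23 for Hsp26, -0.99 to 2.70 for Hsp67Bc and -2.61 to 2.99 for Hsp68. For Hsp70Bb it was -1.49 to 2.28, for Hsp70Bc -9.67 to 4.92, for Hsp83 -0.091 to 0.19 and for stv -1.29 to 1.30, with -0.092 without replicate 3 in the fit with the block. The -9.67 of Hsp70Bc comes from an IgG control group left with 0 counts, depends on the prior count and is no bound.

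The median difference of replicate 3 over the 10 genes ran from 1.84 to 1.92 in input, 1.01 to 1.99 in IgG control and 2.17 to 2.88 in anti-FLAG IP when replicate 1 or 2 was left out. The number of genes with all replicate 3 libraries above the others was 7 under total-count scaling, where Hsp83 joined and Hsp23 and Hsp26 left, and 8 in the other settings. Of the 10 genes most alike in profile, 5 were shared under total-count scaling and 5 with a pseudocount of 2 CPM. Low counts limit Hsp67Bc, Hsp70Bb and Hsp70Bc, at 0 counts in some libraries, to statements on single libraries.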
